A study of Homo sapiens with 3 samples.

Results

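The 10 genes described here form the core of oxygen sensing and a small set of its outputs: HIF1A, EPAS1, EGLN1, EGLN2, EGLN3, VHL, VEGFA, CA9, ADM and NDRG1. They were taken by symbol from a table of 26485 gene entries, in which each had 1 row. The cells were CAMA1, an established human breast cancer line that is positive for the estrogen receptor and amplified for FGFR1. All 3 libraries belonged to 1 untreated control group, taken after 48 h in medium deprived of estradiol, with a stated passage of less than 10, and no oxygen condition was varied. A single line was used, and the labels leave unsaid whether the 3 biological replicates shared a culture, an extraction or a sequencing run. Tests between replicates therefore measure the spread of these libraries, which may be technical. What the design allows is the level of each gene in these cells and the differences between the libraries.

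In cells with enough oxygen, prolyl hydroxylases of the EGLN family modify the alpha subunits of the hypoxia-inducible factors, which are then bound by the VHL protein and sent to the proteasome. When oxygen is scarce the alpha subunits, encoded by HIF1A and EPAS1, persist, pair with ARNT and activate genes of glucose use, blood vessel growth and pH control. This control acts on the proteins, so transcript levels of HIF1A and EPAS1 do not report the activity of the factors. In breast tumours CA9 and VEGFA are widely used as readouts of hypoxia.

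Library totals ran from 26473939 to 30745412 counts. Of the 7 luminal marker genes examined all had at least 10 counts in each library, led by KRT19 and KRT8. Of 13 markers of immune, endothelial, fibroblast, basal and fat cells 3 did, led by COL1A1 at 10.5 ± 0.270 TPM, then CD68 and KRT14, while 6 had at most 3 counts in every library. The summed level of those 13 markers was 15.9, 16.3 and 14.5 TPM in replicates 1, 2 and 3. Replicate 1 stood apart in immediate early genes: all 11 tested were lowest there, and their list summed to 417, 1522 and 1373 TPM in replicates 1 to 3.

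NDRG1, VEGFA and VHL were the most abundant of the 10 transcripts, and CA9 and EGLN2 were at the limit of detection. TPM is the transcript share: counts were divided by deposited gene length, then by the sum of these values over all entries of the library. Mean levels in TPM were 151 ± 50.9 for NDRG1, 136 ± 34.9 for VEGFA, 102 ± 1.98 for VHL, 30.6 ± 1.27 for HIF1A and 28.9 ± 3.54 for EGLN3 (SD, n = 3). Below these stood EGLN1 at 17.3 ± 1.08, EPAS1 at 6.56 ± 1.38, ADM at 4.90 ± 1.39, EGLN2 at 0.0927 ± 0.0133 and CA9 at 0.0798 ± 0.0699 (SD, n = 3). Library values of NDRG1 and VEGFA overlapped, as did those of HIF1A and EGLN3, of EPAS1 and ADM, and of EGLN2 and CA9, so across libraries the order within these pairs was not separated by the spread. Within each library, though, EPAS1 stood above ADM. Other neighbours in this order did not overlap in any library. Of the 10 genes 8 had at least 10 counts in each library, against 14529 of 26485 entries, and the median of the 10 levels was 23.1 TPM against 1.5 TPM over all entries.

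**Figure D1:**
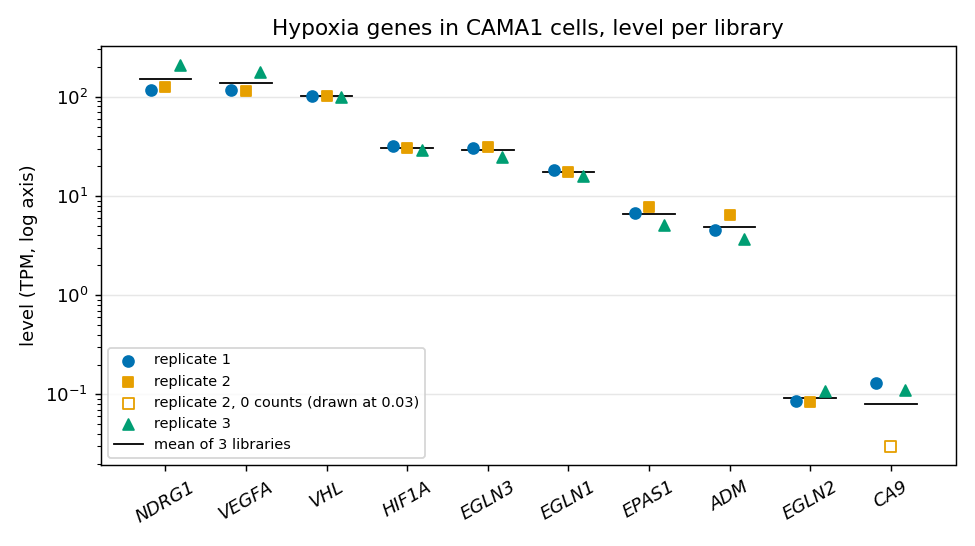
Level of each of the 10 genes in TPM on a log axis, with 1 point per library and a line at the mean of the 3 libraries; a count of 0 is drawn as an open symbol. NDRG1, VEGFA and VHL lie near or above 100 TPM and EGLN2 and CA9 near 0.1 TPM, and replicate 3 lies above the others for NDRG1 and VEGFA.

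HIF1A was the main alpha subunit transcript and EPAS1 the minor one. HIF1A (chromosome 14, 61695401 to 61748259, hg38), which encodes the broadly expressed alpha subunit, stood at 31.8, 30.6 and 29.3 TPM in replicates 1, 2 and 3, on 1386, 1342 and 1512 counts. EPAS1 (chromosome 2, 46297402 to 46386703), which encodes the HIF-2 alpha subunit, stood at 6.74, 7.83 and 5.09 TPM on 345, 404 and 309 counts. The libraries of HIF1A were close together, and those of EPAS1 were highest in replicate 2 and lowest in replicate 3. HIF1A made up 82.4 ± 2.79% of the TPM of the pair, and the log2 ratio of HIF1A over EPAS1 was 2.24 ± 0.28 (SD, n = 3; higher in 3 of 3 libraries; exact two-sided sign-flip permutation p = 0.25, the smallest that 3 libraries can give, and 0.25 after adjustment over 4 ratios).

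Part of HIF1A is shared with other entries. Of its 4395 exon bases 1338, or 30.4%, are also exon of the antisense entries HIF1A-AS1 and HIF1A-AS2 on the opposite strand. HIF1A-AS2 itself had 0, 1 and 0 counts. With all its counts divided by its 3057 bases free of any other entry, an alternative chosen after seeing the data, HIF1A stood at 43.0 ± 1.78 TPM (SD, n = 3). Reads were not recounted on those bases, so this value is too high if counts also came from the overlapped bases.

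Other subunits and regulators of the factors were uneven. ARNT, the shared partner subunit, was the highest of this list of 9 genes at 64.3 ± 1.64 TPM, and HIF1AN, an asparagine hydroxylase that limits coactivator binding, stood at 41.6 ± 1.24 TPM. HIF3A had 2, 0.2 and 1.25 counts and ARNT2 9, 8 and 12. Of the 9 genes 6 had at least 10 counts in each library. The coactivator genes CREBBP and EP300 stood at 43.0 ± 1.69 and 40.2 ± 1.63 TPM, and CITED2, which encodes a competitor for those coactivators, at 110 ± 10.4 TPM, with CITED4 at 17.1 ± 1.81 TPM.

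Per deposited length, EGLN3 was the highest of the measured prolyl hydroxylase transcripts, ahead of EGLN1, while EGLN2 had 2 to 3 counts and few bases of its own. EGLN3 (chromosome 14, 33924215 to 33951078), a hydroxylase gene that is itself a HIF target, stood at 30.3, 31.5 and 24.8 TPM on 818, 855 and 794 counts. EGLN1 (chromosome 1, 231363751 to 231425044), which encodes the main oxygen sensor in most cells, stood at 18.2, 17.5 and 16.1 TPM on 1280, 1240 and 1340 counts. No library of EGLN1 reached the lowest of EGLN3, and replicate 3 was the lowest for both. The log2 ratio of EGLN1 over EGLN3 was −0.74 ± 0.11 (SD, n = 3; lower in 3 of 3 libraries; exact two-sided sign-flip permutation p = 0.25, 0.25 adjusted). Without division by length EGLN1 had more counts than EGLN3, with a log2 ratio of 0.65 on CPM, since its deposited length is 7097 bases against 2722. The RefSeq start of EGLN1 (GRCh38.p14) is at 231422287, inside the deposited span, so the length of its transcript here is uncertain. The order of EGLN3 and EGLN1 rests on the deposited lengths.

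EGLN2 (chromosome 19, 40799143 to 40808441) had 2, 2 and 3 counts, or 0.0854, 0.0847 and 0.108 TPM. Of its 2365 exon bases, 2035, or 86.0%, are also exon of RAB4B-EGLN2, a readthrough entry on the same strand, which leaves 330 bases that belong to EGLN2 alone. RAB4B-EGLN2, RAB4B and MIA-RAB4B, each with all exon bases in another entry, had 0 counts in all 3 libraries. Across the table, entries that overlapped almost fully were also low. In the band of EGLN2, with 80 to under 99% of exon bases in another same-strand entry, 43 of 228 entries (18.9%) had 10 counts in each library. None of the 646 entries with 99% or more of their exon bases in another same-strand entry had 10 counts in each library, against 13947 of 24752 entries (56.4%) with no such overlap. Among entries free of same-strand overlap, none of 101 with 99% or more of their exon bases, and none of 44 with 80 to 99%, under an opposite-strand entry had 10 counts in each library, against 11604 of 21380 (54.3%) with no overlap at all. In the band of HIF1A, with 20 to under 50% under an opposite-strand entry, 347 of 543 (63.9%) had them.

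For EGLN2 a low transcript level and reads lost to this overlap cannot be told apart, so its level here is not read as that of its transcript. The log2 ratio of EGLN1 over EGLN2 was 7.40 ± 0.27 and that of EGLN2 over EGLN3 −8.14 ± 0.36 (SD, n = 3; same sign in 3 of 3 libraries; exact two-sided sign-flip permutation p = 0.25 each, 0.25 adjusted). With all its 2 to 3 counts divided by the 330 bases free of overlap, EGLN2 stood at 0.650 ± 0.0930 TPM. Reads were not recounted on those bases, so this value is too high if counts also came from the shared bases. The rule for counting reads in shared bases was not given in the sources used here. None of the other 8 genes had an exon base in common with another entry on either strand.

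**Figure D2:**
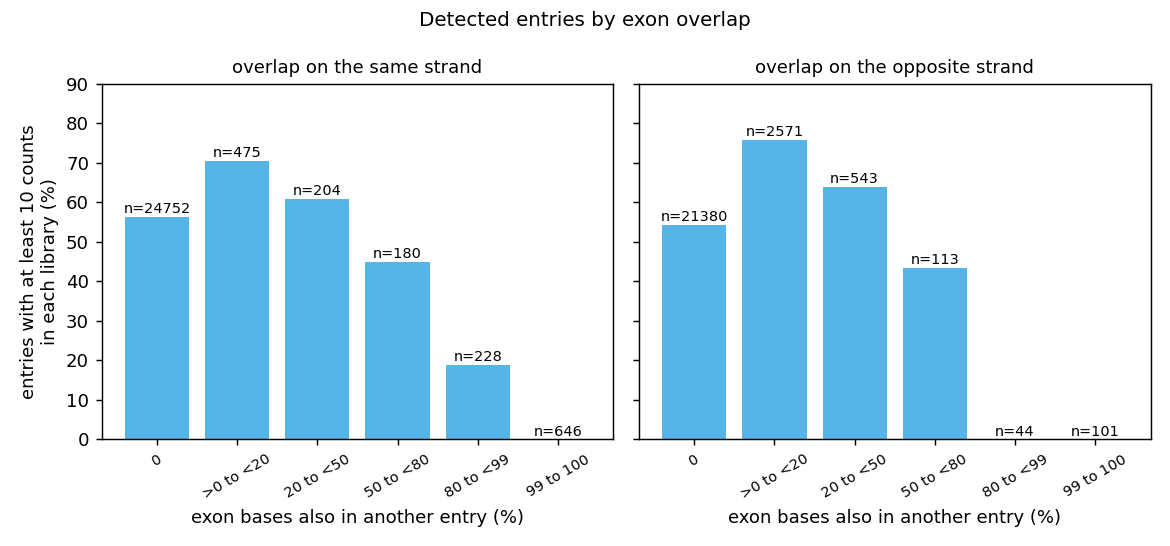
Percent of table entries with at least 10 counts in each library, by the percent of their exon bases that lie in another entry on the same strand (left) or, for entries without same-strand overlap, on the opposite strand (right); n is the number of entries. The bar for 80 to under 99% on the same strand, the band of EGLN2, stands at 18.9%, and the bars are at 0 for the 646 entries that overlap almost fully on the same strand and for the 44 and 101 entries that overlap most on the opposite strand.

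VHL was high and even. VHL (chromosome 3, 10141635 to 10153670), which encodes the substrate receptor of the ubiquitin ligase that removes HIF alpha subunits, stood at 103, 103 and 99.4 TPM on 4646, 4679 and 5322 rounded counts, and the 3 libraries were nearly equal. The other genes of this ligase were expressed too, with all 5 at 10 TPM or above and a median of 114 TPM. The elongin genes TCEB2 and TCEB1 stood at 340 ± 19.96 and 114 ± 5.11 TPM, and RBX1, which encodes the ring subunit, at 226 ± 12.2 TPM.

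Of the 4 target genes, VEGFA and NDRG1 were abundant, ADM was low and CA9 was at the limit of detection. VEGFA (chromosome 6, 43770209 to 43786486), which encodes a growth factor for blood vessels, stood at 117, 115 and 177 TPM on 4395, 4340 and 7838 counts. NDRG1, a stress-responsive gene also induced by differentiation, stood at 117, 126 and 209 TPM on 4022, 4383 and 8548 counts. Both were highest in replicate 3, and replicates 1 and 2 lay close together. ADM (chromosome 11, 10304980 to 10307402), which encodes the vasodilator peptide adrenomedullin, stood at 4.57, 6.43 and 3.70 TPM on 72, 102 and 69 counts, highest in replicate 2. CA9 (chromosome 9, 35673918 to 35681157), which encodes a cell-surface carbonic anhydrase, had 2, 0 and 2 counts, and a count of 0 leaves room for 3 counts, or up to 0.193 TPM in replicate 2. CA12, another carbonic anhydrase gene, stood at 407 ± 48.0 TPM in the same libraries.

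The promoters below show how the HIF core motif lies in genes with very different transcript levels. The window ran from 250 bases before to 50 bases after the RefSeq gene start (GRCh38.p14), and ACGTG and GCGTG, the forms of the core motif, were searched on both strands; 7 of the 10 genes had a window (9 windows in all, as HIF1A and EGLN2 had more than 1), and VHL, VEGFA and NDRG1 had none. The 250 bases before the start are printed 5′ to 3′ on the gene's strand, with motif matches in capitals. CA9 (chr9:35673678-35673927, plus strand) was at the limit of detection, EGLN1 (chr1:231422288-231422537, minus strand) was expressed, and ADM (chr11:10304823-10305072, plus strand) and EGLN3 (chr14:33951075-33951324, minus strand) were both lowest in replicate 3. All printed bases of EGLN1 lie inside the deposited span of its entry, 231363751 to 231425044. They precede the RefSeq start, not the start of the entry counted here.
CA9: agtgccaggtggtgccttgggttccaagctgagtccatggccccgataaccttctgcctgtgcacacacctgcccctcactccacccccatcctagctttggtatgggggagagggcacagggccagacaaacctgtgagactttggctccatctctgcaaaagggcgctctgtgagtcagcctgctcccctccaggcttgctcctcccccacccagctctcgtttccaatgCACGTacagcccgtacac
EGLN1: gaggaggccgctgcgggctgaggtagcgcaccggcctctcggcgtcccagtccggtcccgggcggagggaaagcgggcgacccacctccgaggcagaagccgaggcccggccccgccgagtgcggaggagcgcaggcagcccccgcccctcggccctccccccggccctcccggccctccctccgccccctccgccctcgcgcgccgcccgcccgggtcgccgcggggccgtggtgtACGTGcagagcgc
ADM: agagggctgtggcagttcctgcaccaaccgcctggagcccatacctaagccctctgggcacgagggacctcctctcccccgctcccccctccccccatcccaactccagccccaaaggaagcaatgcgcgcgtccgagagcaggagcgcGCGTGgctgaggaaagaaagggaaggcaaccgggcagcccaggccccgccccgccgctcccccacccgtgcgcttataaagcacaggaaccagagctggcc
EGLN3: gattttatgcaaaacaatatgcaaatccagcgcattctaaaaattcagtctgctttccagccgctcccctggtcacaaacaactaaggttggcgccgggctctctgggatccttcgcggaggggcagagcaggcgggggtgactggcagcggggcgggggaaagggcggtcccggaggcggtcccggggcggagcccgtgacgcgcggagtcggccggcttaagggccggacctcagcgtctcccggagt

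CA9 holds ACGTG on the reverse strand, printed as CACGT, at positions −18 to −14 from the start, and EGLN1 holds ACGTG at −13 to −9. ADM holds GCGTG at −101 to −97, and no match of either motif lies in the window of EGLN3. Of the windows not printed, the first EGLN2 window has ACGTG on both strands in 1 overlapping match at −49 to −44, EPAS1 has GCGTG at −117 to −113 and the first HIF1A window GCGTG at −204 to −200. In all, 6 of the 9 windows held a match, 3 with ACGTG and 3 with GCGTG. Over all 35116 RefSeq windows 21.4% held ACGTG, 36.5% GCGTG and 48.4% either. A match of these letters was found both in CA9, with at most 2 counts in a library, and in EGLN1, with at least 1240.

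NDRG1 and VEGFA were both higher in replicate 3 and had the smallest adjusted p-values of the members, while HIF1A, EGLN1 and VHL did not pass the test. On the CPM scale, counts divided by the TMM-scaled library total with no division by length, NDRG1 (chromosome 8, 133237171 to 133297304) reached 150, 165 and 281 and VEGFA 164, 163 and 258 in replicates 1, 2 and 3. In replicate 3 NDRG1 was 1.87-fold its level in replicate 1 and 1.70-fold that in replicate 2, with log2 ratios of 0.90 (95% counting interval 0.85 to 0.96) and 0.77 (0.72 to 0.82). VEGFA was 1.57-fold and 1.58-fold higher in replicate 3, with log2 ratios of 0.65 (0.60 to 0.70) and 0.66 (0.61 to 0.71). Between replicates 1 and 2 the log2 ratio of VEGFA was −0.01 (−0.07 to 0.05), and that of NDRG1 was 0.13 (0.07 to 0.19). In bulk RNA, fewer cells with a transcript and less transcript per cell cannot be told apart.

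EPAS1, EGLN3 and ADM went the other way, lowest in replicate 3 and highest in replicate 2. EPAS1 stood at 12.9, 15.2 and 10.2 CPM, with a log2 ratio of replicate 3 over 2 of −0.58 (−0.79 to −0.37). EGLN3 stood at 30.6, 32.2 and 26.1 CPM, with −0.30 (−0.44 to −0.16). ADM stood at 2.69, 3.84 and 2.27 CPM, with −0.76 (−1.20 to −0.32), an interval wide for its 69 to 102 counts. For replicate 3 over 1 the log2 ratio was −0.34 (−0.57 to −0.12) for EPAS1 and −0.23 (−0.37 to −0.09) for EGLN3. For ADM it was −0.25 (−0.72 to 0.23), so counting error did not separate replicates 1 and 3. Nor did it separate replicates 1 and 2 of EGLN3, with a log2 ratio of 2 over 1 of 0.07 (−0.07 to 0.21). HIF1A stood at 51.8, 50.5 and 49.7 CPM, EGLN1 at 47.8, 46.6 and 44.04, and VHL at 174, 176 and 175.

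Beyond Poisson counting error, 5 of the 8 tested members varied between the 3 libraries, where 41.6% of 14453 tested genes did. They were NDRG1 (chi-square test, Benjamini-Hochberg adjusted p = 2.21e-317), VEGFA (1.37e-185), EPAS1 (3.97e-06), EGLN3 (0.000289) and ADM (0.00603). Of the 8, 2 passed with their highest value in replicate 3, as 19.4% of tested genes did, and 3 with their lowest there, as 18.6% did. HIF1A (adjusted p = 0.647), EGLN1 (0.173) and VHL (0.875) did not pass. CA9 and EGLN2 fell under the filter on low counts and were not tested. Without replicate 3 only NDRG1 passed among the 8 members, as 1174 genes did in all, and without replicate 2 ADM did not (0.464). Since so many genes pass that test, the same statistic was also set against the trended dispersion of edgeR, the spread shown by genes of like abundance. Then 2 of 8 members passed, NDRG1 (adjusted p = 2.55e-07) and VEGFA (0.000577), where 1.21% of tested genes did, and 0.56% passed with their highest value in replicate 3. Without replicate 3 neither passed (0.999 for both), and without replicate 2 VEGFA did not (0.144). EPAS1 (0.988), EGLN3 and ADM (1.0 for both) did not pass against that spread.

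**Figure D3:**
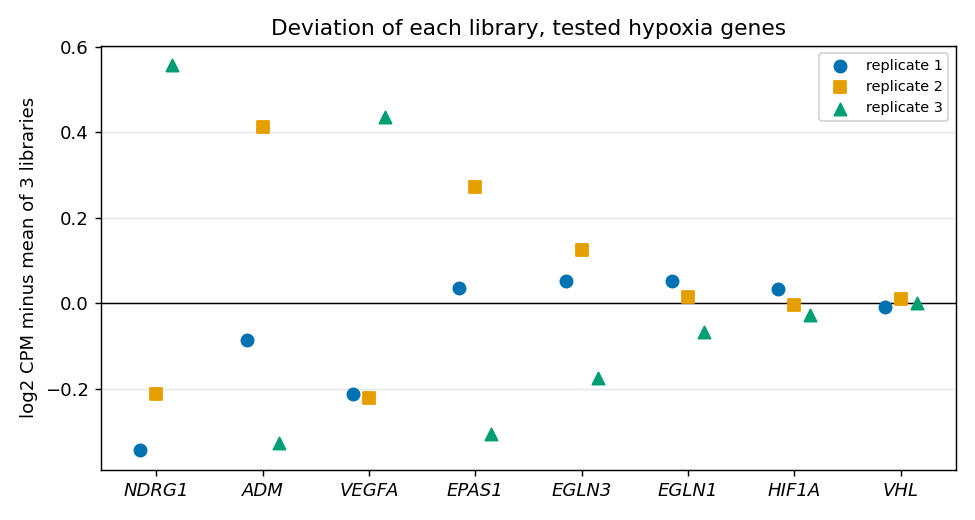
Log2 CPM of each library minus the mean of the 3 libraries, for the 8 tested genes in order of their range. Replicate 3 is highest for NDRG1 (0.56) and VEGFA (0.44) and lowest for ADM (−0.33), EPAS1 (−0.31) and EGLN3 (−0.18), and the points of VHL nearly coincide.

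The range of log2 CPM over the libraries was 0.90 for NDRG1, 0.74 for ADM, 0.66 for VEGFA, 0.58 for EPAS1, 0.30 for EGLN3, 0.12 for EGLN1, 0.06 for HIF1A and 0.02 for VHL. A range as large as that of NDRG1 was found in 2.57% of tested genes, as that of VEGFA in 7.04% and as that of VHL in 99%. ADM, at 5.0%, is far less abundant than VEGFA, and low counts widen the range. The median range of the 8 was 0.44, against 0.19 over all tested genes.

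**Figure D4:**
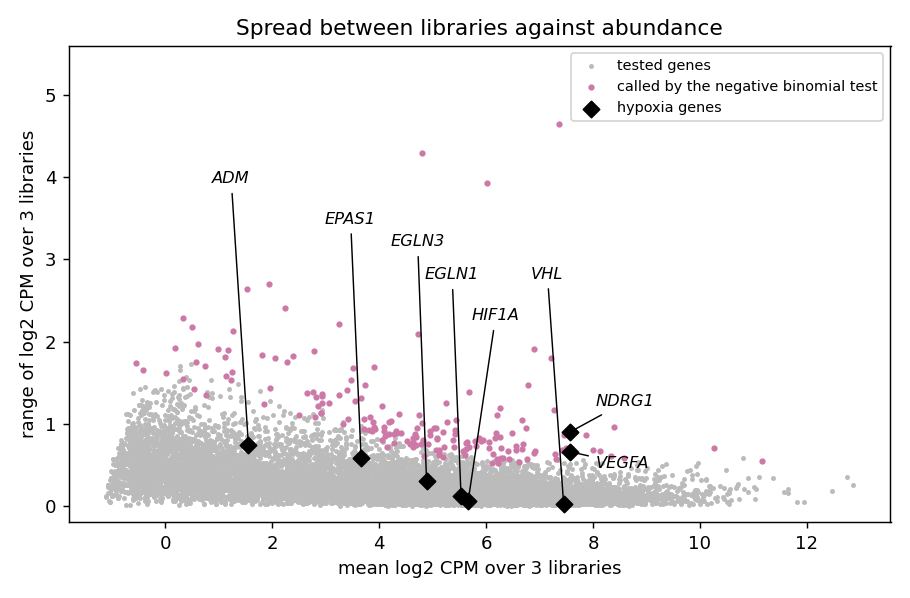
Range of log2 CPM over the 3 libraries against mean log2 CPM for 14453 tested genes (grey), those passing the negative binomial test (pink) and the 8 tested hypoxia genes (black). NDRG1 (0.90) and VEGFA (0.66) lie above most genes of like abundance, and VHL (0.02) lies at the lower edge.

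Other HIF target genes fell into both patterns. Of 43 targets outside the 10 genes, 39 were tested and 25 (64.1%) varied beyond Poisson counting error, 15 of them highest in replicate 3, and 2 (5.13%) varied beyond the trended dispersion. Over all tested genes the shares were 41.6%, 19.4% with the highest value in replicate 3, and 1.21%. At an unadjusted p under 0.05 of the negative binomial test 7 of the 39 varied, against 854 of 14453 tested genes. Like NDRG1, the glucose transporter gene SLC2A1 was highest in replicate 3, at 157, 170 and 248 CPM (negative binomial adjusted p = 0.00256). ANKRD37, an ankyrin repeat gene, stood at 8.26, 7.75 and 13.8 CPM, highest in replicate 3 (0.0989, not passing). BHLHE40, a repressor gene of the circadian clock, passed with its highest value in replicate 2, at 60.6, 98.6 and 78.2 CPM (0.00621). PDK1, which encodes a kinase that holds pyruvate back from the mitochondria, stood lowest in replicate 3 at 16.0, 17.3 and 12.2 CPM (1.0, not passing).

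Among 20 targets of glucose use 19 were detected in each library, with a median of 123 TPM. GAPDH stood at 2030.4 ± 90.7 TPM, the enolase gene ENO1 at 1128 ± 38.1 TPM, the aldolase gene ALDOA at 592 ± 64.1 TPM and the lactate dehydrogenase gene LDHA at 521 ± 10.1 TPM. LDHA was even between libraries, at 502, 498 and 504 CPM. Of the 19 tested 10 (52.6%) varied beyond Poisson counting error and 1, SLC2A1, beyond the trended dispersion, against 41.6% and 1.21% of all tested genes. The first of these shares lies near that of all genes. Among the 28 other targets, which include VEGFA, CA9, ADM, NDRG1 and EGLN3, 24 were detected, with a median of 28.5 TPM. CA12 led them, followed by the transferrin receptor gene TFRC at 358 ± 11.6 TPM, the mTOR inhibitor gene DDIT4 at 207 ± 25.8 TPM and INSIG2 at 171 ± 3.42 TPM. EPO, the erythropoietin gene, had 1, 1 and 2 counts.

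**Figure D5:**
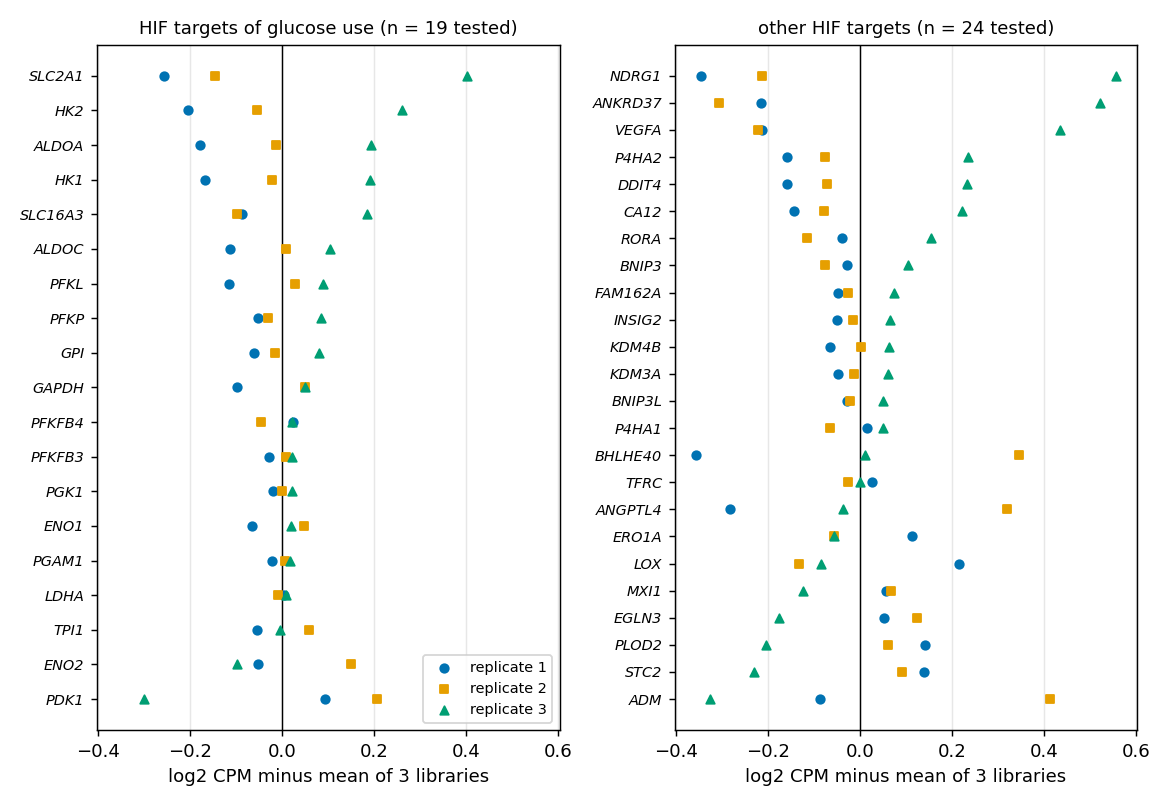
Log2 CPM of each library minus the mean of the 3 libraries for 19 tested HIF targets of glucose use (left) and 24 other tested targets (right), in order of replicate 3. SLC2A1, NDRG1, ANKRD37 and VEGFA have replicate 3 far to the right (0.40, 0.56, 0.52 and 0.44), while PDK1 and ADM have it to the left (−0.30 and −0.33).

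Among 9996 other genes with a mean of at least 10 CPM, those nearest to NDRG1 in their centred log2 CPM over the 3 libraries were CLIC3 (Euclidean distance 0.0505), SSTR2 (0.0528), ID2 (0.0632), EDN2 (0.0647) and CBLN2 (0.0674). The distance of VEGFA from NDRG1 was 0.179, that of VHL 0.686 and that of ADM 1.11. ID2, an inhibitor of helix-loop-helix factors, stood at 189, 195 and 343 CPM, and EDN2, which encodes an endothelin peptide, at 8.37, 8.80 and 14.8 CPM. With 3 libraries such nearness rests on replicate 3 being high.

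Genes of amino acid and unfolded protein stress, a response known to act on VEGFA as well, were measured beside them. Of these 8 genes 6 varied beyond Poisson counting error, 4 of them highest in replicate 3. In the negative binomial test 0 varied beyond the trended dispersion of edgeR. The shares over all tested genes were 41.6%, 19.4% and 1.21%. At an unadjusted p under 0.05 of the negative binomial test 1 of the 8 varied, against 854 of 14453 tested genes. HERPUD1 stood at 132, 140 and 184 CPM (negative binomial adjusted p = 0.134) and TRIB3 at 156, 165 and 186 (1.0), while the chaperone gene HSPA5 was lower in replicate 3 at 634, 650 and 521 CPM (1.0). ATF4 stood at 409, 410 and 423 CPM (1.0) and DDIT3 at 8.19, 10.5 and 9.30. Of the 7 luminal genes 5 varied beyond Poisson counting error, these 5 highest in replicate 3, and 0 varied beyond the trended dispersion. The shares over all tested genes were again 41.6%, 19.4% and 1.21%. At an unadjusted p under 0.05 of the negative binomial test 1 luminal gene, KRT19, varied. KRT19, at 1481, 1732 and 2221 CPM, and GATA3, at 841, 898 and 1054 CPM, were among the 5. EPCAM, also luminal, was not higher in replicate 3, at 256, 260 and 255 CPM. The part of the stress and luminal genes in the values of NDRG1 and VEGFA was not tested. The immediate early genes followed another order, with EGR1 at 19.4, 465 and 486 CPM and FOS at 4.04, 80.3 and 64.5 CPM, so that replicate 1 was low where NDRG1 and VEGFA had replicate 3 high.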

How the data were processed

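Poly-A RNA of 3 CAMA1 libraries was measured. The deposited values are expected counts per gene, partly fractional (among values above 0, the share of whole numbers was 82.9 to 83.3% in a library, at a tolerance of 1e-08), with a gene length in bases as the other deposited column. Per the submitters' processing notes, the build was hg38 and the tools were featureCounts, Subread and TopHat. Their versions and the settings for strand and multiple matches are not given in the sources used here. Libraries were stranded, per the labels' protocols.

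TPM was computed from deposited counts and lengths. Counts rounded to whole numbers were scaled with TMM in edgeR 4.0.16 (R 4.3.3) after its filter on low counts; log2 CPM used a prior count of 2. With 1 group there is no contrast, so each gene was tested by chi-square against Poisson sampling and, as an alternative, against a negative binomial with edgeR's trended dispersion, with Benjamini-Hochberg adjustment over all tested genes at 0.05. The procedure was tested on simulated data. Ratios used log2(TPM + 0.01). Counting intervals (95%, normal approximation) and limits from 3 counts cover counting error only. Exon overlap was computed from the deposited exon coordinates. Promoters are from RefSeq (GRCh38.p14).

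The members and lists were chosen with earlier results of these data known. Genes named outside the members were the 4 highest by TPM and the 2 with the largest range in each list. The 5 genes nearest to NDRG1 were named too. The antisense and readthrough entries, ARNT2, HIF3A, EPO and BHLHE40 were chosen after their values were seen. EPCAM, a gene of the luminal list, was named outside these rules. Alternatives were another scaling, other filters on counts, CPM in place of TPM, another pseudocount and each replicate left out. Protein sequences were not used here.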

Additional observations from a re-analysis of the deposited data

How the results depend on the processing

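The level of 1 group was described and the tests compare replicates only, so precision rests on 3 libraries and, for ADM, CA9 and EGLN2, on few counts. No paired analysis was possible because the series has 1 group. The variance model and replicate 3 decided most. Against the negative binomial spread 175 genes and 2 members varied, in place of 6018 and 5 against Poisson sampling. With each replicate left out in turn, 1174 to 5435 genes and 1 to 5 members varied against Poisson sampling, and without replicate 1, 2 or 3 there were 82, 54 and 24 genes and 2, 1 and 0 members against the negative binomial spread, an alternative chosen after seeing the data that also has fewer samples. With DESeq2 size factors, library totals, no filter on counts or at least 20 counts in each library, 5797 to 6072 genes and 5 members varied. The median level of the 10 genes was 37.9 on CPM in place of 23.1 TPM, since CPM does not divide by length. For the same reason the log2 ratio of EGLN1 over EGLN3 turned from −0.74 to 0.65 on CPM. The other 3 ratios kept their sign under all alternatives run. For the ratios with EGLN2 that sign rests on its 2, 2 and 3 counts, which are not read as its transcript level. With all counts divided by the exon bases free of overlap, also chosen after seeing the data, the levels of HIF1A and EGLN2 moved as given above. VHL, which has no overlapped exon base, moved from 102 to 99.5 TPM, since the TPM total was recomputed. In all, 269 of the values recomputed were labelled unchanged, 21 moved, 20 lost significance and 1 reversed. Unchanged meant the same side of the threshold for tests, and within the spread or counting interval for levels and library ratios. For ratios between genes it meant the same sign, and for counts of genes a change under a set fold. A ratio could so be labelled unchanged and differ in size: EGLN1 over EGLN2 went from 7.40 to 4.06 with a pseudocount of 1.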

Other observations

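MIR210HG, the host transcript of a microRNA known to be induced by hypoxia, stood at similar levels in the 3 CAMA1 libraries. It had 271, 270 and 330 counts in replicates 1, 2 and 3, or 5.94, 5.87 and 6.10 TPM, and so did not show the higher value in replicate 3 seen for NDRG1 and VEGFA. Its level is uncertain, since its deposited length of 4606 bases covers copies on 2 sequences, chromosome 11 and an alternate contig. The libraries did not pass the chi-square test against Poisson sampling (Benjamini-Hochberg adjusted p = 0.732). The gene was chosen after its values were seen.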
